A study of Rattus norvegicus with 12 samples.

Results

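The arrays described here were of FaO cells, a rat hepatoma line that keeps part of the hepatocyte programme, after 42, 48 and 72 h in α-lipoic acid (α-LA), set against 3 arrays of untreated FaO cells. These 6 of the study's 12 arrays were chosen by their titles. The late group held 1 array for each of the hours 42, 48 and 72, and the control group held Control_1, Control_2 and Control_3. α-LA was given every day at 500 µM in medium with reduced serum, and the study asked which genes change as the treated cells die. The other 6 arrays were α-LA at 6 h, α-LA at 18, 24 and 30 h (here the early group) and a pair of arrays with thapsigargin, an inhibitor of the endoplasmic reticulum (ER) calcium pump.

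All groups shared the same cell line and no genetic change. RNA of 3 wells was pooled for each array, so the wells' own spread was not measured, and no source used here states when the controls were taken, so that α-LA and time in reduced serum cannot be told apart. The 3 late hours stood in as replicates, which puts any change between 42 and 72 h into the error of the late group, and the p-values below cover only the spread among the arrays. The early and late groups themselves came from clustering these same arrays in the study, so the grouping is not independent of the values.

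Each array reported a fluorescence signal for 22523 features, and 9193 of them reached a signal of 150 on at least 3 of the 12 arrays and were tested. The named features nearest to this limit were Ttyh1 just inside it and Pcdha4 just outside, which reached 149.92 on 3 arrays. Of the tested features, 7459 carried the name of a gene, 7271 genes in all, and a gene with several features is given by its brightest. Between 8409 and 8422 features reached 150 on an array, and the 3 late arrays correlated with each other at 0.988 to 0.995 across features, the controls at 0.99 to 0.997, and late with control at 0.945 to 0.955. Features that never reached 150 lay at a median of 119.2 to 119.3 on every array. This background was left in the deposited signals, so a fold change understates the change of a dim gene. Control 1 stood apart from the other controls in part of the genes, with 33 features lower by 2-fold or more and 0 higher, and 7 of the 22 named ones were subunits of the respiratory chain or of the mitochondrial ribosome. Where its absence moves a list's count of 3 or more by over 1.5 times or ends a call, the value without it is given.

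The label of a hepatocyte-like line was borne out in part. Albumin (Alb) reached 41631, and 6 of the 9 hepatocyte markers on the array were above 150. Of these, 5 were lower and 1 higher in the late group. Hnf4a, Apob and Cps1 had highest signals of 133.7, 137.4 and 150.6 and were too dim to be tested. The controls of Hnf4a (131.5 to 133.7) and Cps1 (145.4 to 150.6) lay above their late arrays (106.0 to 118.7 and 115.7 to 127.5). Those of Apob overlapped with the late arrays. None of the 7 stellate cell, 6 macrophage and 4 endothelial markers on the array reached 150 on 3 of the 6 arrays, and their highest signal was 169. The summed macrophage signal was 704 to 727 in the controls and 684 to 717 in the late arrays, the endothelial sum 456 to 469 and 462 to 478, and the stellate sum 826 to 886 and 827 to 899. Of 6 bile duct markers 4, Krt7, Krt19, Epcam and Spp1, were below 150 on all 6 arrays, and the sum of the 6 was 1066 to 1187 in the controls and 893 to 913 in the late arrays. The part of such cells in the results below was not tested beyond these values.

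Proteins that fold badly in the ER are sensed by the membrane proteins PERK, IRE1 and ATF6. PERK slows translation and favours the transcription factor ATF4, which drives CHOP (Ddit3), amino acid supply and tRNA charging, while ATF6 and IRE1, through XBP1, raise chaperones and the machinery that removes misfolded proteins. CHOP is known for its part in the death of cells under lasting ER stress. Cells that leave the division cycle silence genes of DNA replication and mitosis, which are held down in resting cells by the E2F family and by the DREAM complex.

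At a Benjamini-Hochberg adjusted p under 0.05 (limma, control, early and late arrays in the fit), 1753 features were higher in the late group, 19.1% of those tested, and 1625 were lower, 17.7%. Changes of at least 2-fold were fewer, with 242 features higher (2.63%) and 366 lower (3.98%), and at 5-fold or more 10 were higher and 36 lower. In 1721 of the features called higher and 1600 of those called lower the late arrays did not overlap with the controls. Over all 9193 tested features, called or not, the late arrays lay wholly above the controls in 2484 and wholly below in 2221. Absence of overlap therefore adds little to a call. The median log2 change over all tested features was 0.02, and the median standard error 0.11. The highest late array of the features called higher was the 42 h array in 613, the 48 h array in 521 and the 72 h array in 619. Counted over genes, 19.4% were higher and 19.4% were lower, with a median log2 change of 0.01, and the gene lists below are read against these shares. List counts of 1 or 2 often moved by 1 when a single array was left out. Some genes count in several lists, so the lists are not separate results. Herpud1 is in the PERK and ER-associated degradation lists, and Atf3 in the PERK and immediate early lists. Hmox1 and Ftl1 are in the NRF2 and the heme and iron lists, and the PERK and hypoxia lists also share genes. In RNA taken from whole cultures, fewer cells that express a gene and less of its RNA in each cell cannot be told apart.

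The 3 largest rises among features given a gene name here were Gdf15, Ddit3 and Arhgef2, and the 3 largest falls Pck1, Ccna2 and Nuf2. The study's own table prints Aldh1a4 beside a feature that is not ranked here. By that table it fell more than Ccna2 at 42 and 48 h and less at 72 h. Gdf15, a stress hormone that curbs appetite, had signals of 288, 356 and 396 in the controls and 3109, 3248 and 3626 at 42, 48 and 72 h, 9.66-fold higher (log2 change 3.27 ± 0.13 (SE), adjusted p = 7.58e-08). Pck1, the enzyme that commits carbon to glucose synthesis, went the other way, from 5152, 4706 and 4430 to 467, 384 and 384, 11.6-fold lower (adjusted p = 1.08e-07). In both genes the late arrays lay close together and far from every control.

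**Figure D1:**
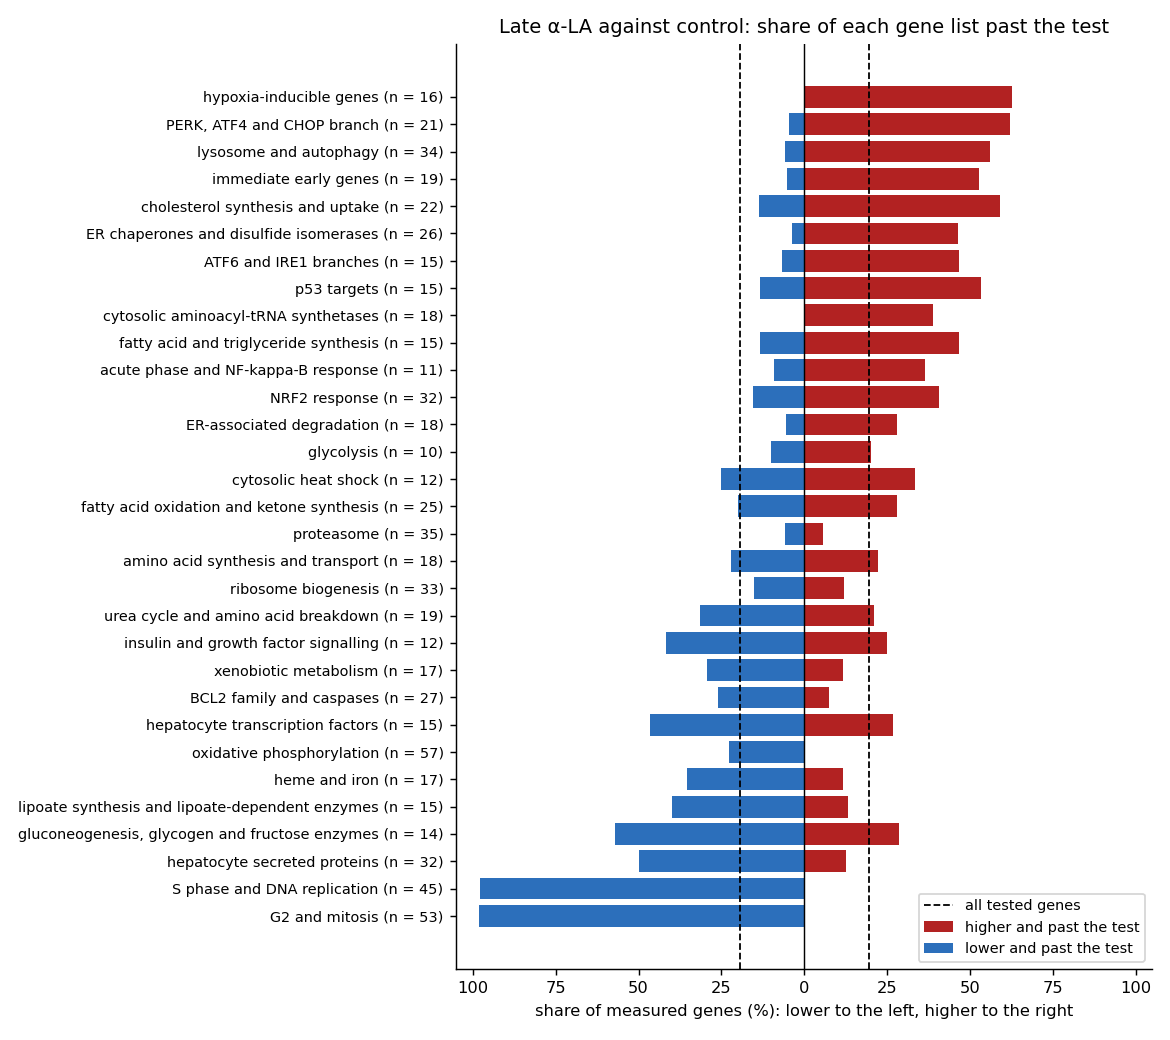
For each gene list with at least 10 measured genes, the share of genes past the test and higher in the late arrays (red, to the right) or lower (blue, to the left), in percent, with the shares over all tested genes as dashed lines. The S phase list (44 of 45 lower) and the G2 and mitosis list (52 of 53 lower) lie farthest to the left. To the right lie 10 of 16 hypoxia-inducible genes and 13 of 21 genes of the PERK branch. Some genes count in several lists, these last ones included.

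In the PERK, ATF4 and CHOP branch, 13 of 21 measured genes rose and 1 fell, with a median log2 change of 0.54. The other 7 were not called. Without the 72 h array the count was 13 higher and 0 lower. The gene that fell, Chac1 (log2 change -0.34), also lost its call without control 1, control 2 or the 48 h array. Ddit3, which encodes CHOP, had 505, 680 and 604 in the controls and 8213, 7038 and 2741 at 42, 48 and 72 h, 9.14-fold higher (log2 change 3.19 ± 0.33 (SE), adjusted p = 2.07e-05). The 42 and 48 h arrays were close to each other, and the 72 h array, though above every control, stood well below them. Trib3, a pseudokinase that CHOP and ATF4 induce and that restrains AKT, followed the same order, with 251, 301 and 306 against 1836, 1756 and 780 (4.78-fold, adjusted p = 4.26e-05). Ppp1r15a (GADD34), the phosphatase subunit that restores translation, had 154, 178 and 196 against 1106, 1141 and 427 (4.65-fold, adjusted p = 0.000138). Atf3, a transcription factor downstream of ATF4, rose from controls that lay at or near the floor of 150, at 136, 151 and 143, to 752, 836 and 376. For all of these the late arrays did not overlap with the controls.

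The upstream members moved less. Atf4 itself rose 1.72-fold, from 3213, 2994 and 2841 to 5606, 5349 and 4615 (adjusted p = 0.00013). Eif2ak3, the gene of PERK, had 329, 277 and 326 in the controls and 687, 688 and 426 in the late arrays, 1.89-fold higher (adjusted p = 0.00109). Cebpb, which encodes a partner of CHOP, rose 2.19-fold to 6021, 6773 and 4372.

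**Figure D2:**
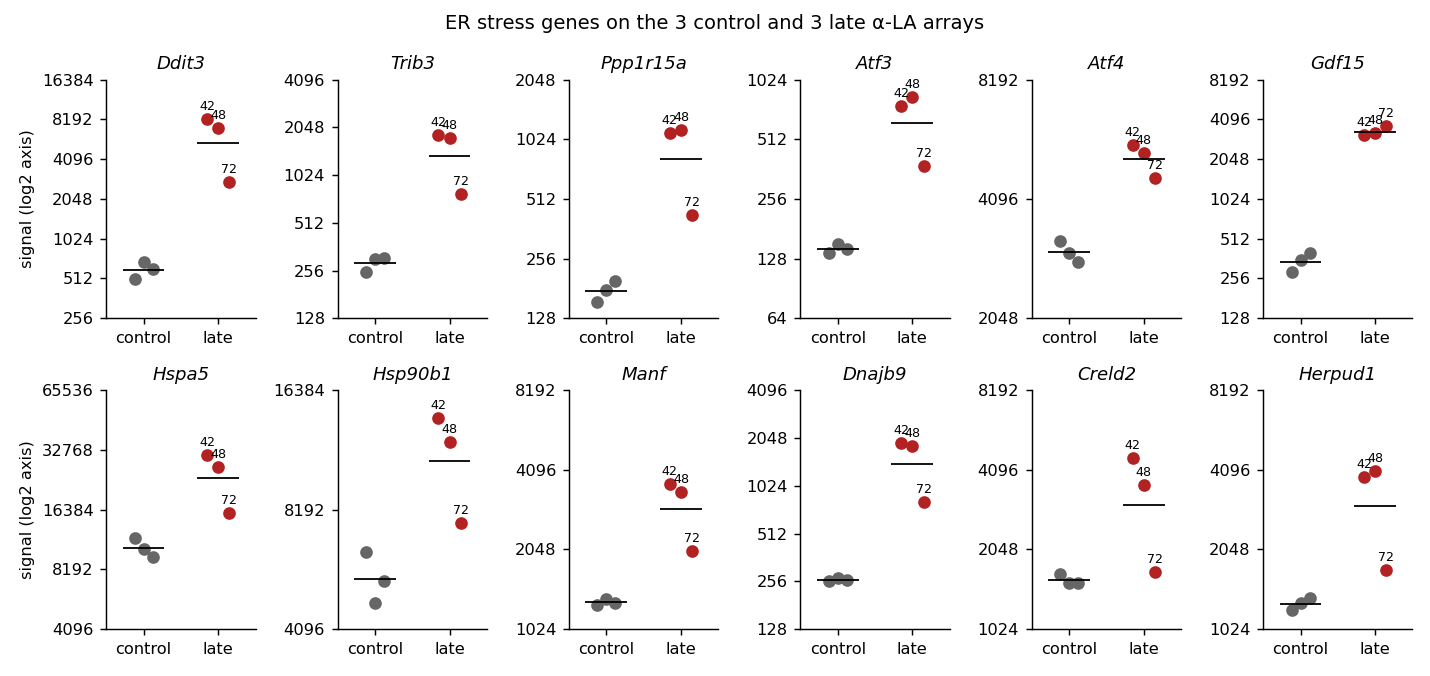
Signal of 12 ER stress genes on each control array (grey) and each late array (red, with its hour), on a log2 axis, with lines at the geometric means. The 72 h array is the lowest late array in 11 of the 12 genes, Gdf15 being the exception, and in none of them does a late array fall below a control.

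In the ATF6 and IRE1 branches, 7 of 15 measured genes were higher and 1 lower (median 0.25). The ER-bound transcription factor Creb3l3, a liver protein cut like ATF6, had 178, 208 and 192 in the controls and 1061, 837 and 1021 in the late arrays, 5.03-fold higher (adjusted p = 7.67e-06). Dnajb9, a co-chaperone of BiP induced by XBP1, had 257, 270 and 260 against 1911, 1835 and 807 (5.40-fold, adjusted p = 2.58e-05). These both rose at all 3 hours, but only Dnajb9 was lower at 72 h. Xbp1 did not pass the test, with 5606, 4650 and 4650 in the controls and 4242, 4596 and 4255 in the late arrays (log2 change -0.18 ± 0.14 (SE), adjusted p = 0.332), and these signals do not separate its spliced form. Mbtps1, the protease that cuts ATF6, was 1.64-fold lower, at 286, 322 and 295 against 510, 487 and 484. Atf6 was on the array but did not exceed 143.8 on any of the 6 arrays, and Ern1 (IRE1) was not analysed here because no feature carried its name.

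ER chaperones and disulfide isomerases rose in 12 of 26 measured genes, with 1 lower and a median of 0.44. The count was 7 without control 2, without control 3 or without the 42 h array, and 13 without the 72 h array. Hspa5 (BiP or GRP78), the main ER chaperone, had 11820, 10352 and 9402 in the controls and 30759, 27029 and 15732 in the late arrays, 2.25-fold higher (log2 change 1.17 ± 0.22 (SE), adjusted p = 0.00128). Hsp90b1 (GRP94) rose 1.98-fold, from 6398, 4773 and 5410 to 13921, 12164 and 7580, and the isomerase Pdia4 rose 2.08-fold, to 3614, 3376 and 2414. Manf, a secreted ER stress protein, was 2.25-fold higher, with 3610, 3383 and 2028 against 1265, 1334 and 1281. In each of these 4 genes the 42 h array was the highest and the 72 h array the lowest, still above every control. P4hb, the most abundant disulfide isomerase of the ER, had 14430, 10185 and 11731 in the controls and 13078, 12782 and 10918 in the late arrays, which overlapped (log2 change 0.03, adjusted p = 0.909, 95% interval from -0.30 to 0.35).

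Among genes of ER-associated degradation 5 of 18 were higher and 1 lower. Herpud1, a membrane anchor of that machinery, had 1206, 1282 and 1338 in the controls and 3864, 4062 and 1718 in the late arrays, and its 2.35-fold rise was again smallest at 72 h. Selenos rose 1.98-fold and Vcp, the ATPase that pulls proteins out of the membrane, 1.52-fold. Sel1l, a scaffold of the same machinery, fell 1.32-fold, from 519, 495 and 468 to 385, 350 and 384.

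Creld2, an ER resident chaperone-like protein, showed how far the 72 h array can lie from the other late arrays: 1652, 1534 and 1526 in the controls, 4555 and 3604 at 42 and 48 h, and 1683 at 72 h (log2 change 0.95 ± 0.28 (SE), adjusted p = 0.0215). Its call was lost without the 42 h array (adjusted p = 0.0959), the 48 h array (adjusted p = 0.0844), control 2 (adjusted p = 0.0613) or control 3 (adjusted p = 0.06). Zfand2a, which encodes a stress-induced partner of the proteasome, had 940, 1197 and 1022 against 7070, 6730 and 2815, a 4.88-fold rise with the 72 h array lowest. These 2 genes were among the few in which a promoter match to the ER stress element was found.

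Promoters are shown here because chaperone genes such as Hspa5 and Hsp90b1 are known to carry the ER stress element (ERSE), to which ATF6 and XBP1 bind. It was searched as CCAAT and CCACG 9 bases apart, on both strands, in RefSeq promoters of build GRCr8 from 250 bases before to 50 bases after the start site. An entry was found for 6102 of the 7271 tested genes, and 12 of them, 0.197%, held a match. Among genes called higher the share was 0.602%, and among ER chaperones and isomerases 6 of 21, 28.6%. In the windows below, capitals mark the match, which reads as its reverse complement where it lies on the other strand, and the letters run 5′ to 3′ along the strand of the gene.
Hspa5, chr3:38452906-38453015, plus strand: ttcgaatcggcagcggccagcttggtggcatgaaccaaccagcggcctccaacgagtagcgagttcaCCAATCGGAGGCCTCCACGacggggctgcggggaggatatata
Hsp90b1, chr7:23012334-23012483, minus strand: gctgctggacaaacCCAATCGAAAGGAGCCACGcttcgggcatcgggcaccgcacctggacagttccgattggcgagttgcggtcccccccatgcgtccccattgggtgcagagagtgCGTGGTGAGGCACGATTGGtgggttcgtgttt
Creld2, chr7:121789214-121789303, plus strand: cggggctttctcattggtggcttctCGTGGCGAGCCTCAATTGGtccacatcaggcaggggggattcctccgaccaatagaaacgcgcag
Zfand2a, chr12:20275255-20275344, plus strand: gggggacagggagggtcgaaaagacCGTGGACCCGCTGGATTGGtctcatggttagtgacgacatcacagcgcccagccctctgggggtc
Xbp1, chr14:84604523-84604622, plus strand: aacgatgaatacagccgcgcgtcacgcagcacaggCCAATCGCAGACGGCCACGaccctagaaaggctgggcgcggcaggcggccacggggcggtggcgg
The Hspa5 match began 43 bases before the start site. Hsp90b1 held 2, from 176 and from 72 bases before the start, the second on the other strand. Those of Creld2 and Zfand2a began 145 and 170 bases before the start and lay on the other strand. Xbp1 held the same element from 65 bases before its start, although its level was not called higher. A match is a description of the letters and no evidence of binding.

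Amino acid supply and tRNA charging, which ATF4 is known to drive, are given here as separate lists. Cytosolic aminoacyl-tRNA synthetases rose in 7 of 18 measured genes and fell in 0 (median 0.26). Sars1, the enzyme for serine, had 837, 666 and 711 in the controls and 1414, 1464 and 1187 in the late arrays (1.84-fold, adjusted p = 0.000131). Wars1, Iars1 and Nars1 rose 1.81-, 1.60- and 1.59-fold, and the 72 h array was the lowest of the late arrays in all 3. Among genes of amino acid synthesis and transport, 4 of 18 were higher and 4 lower. That is 22.2% each way, near the 19.4% each way over all tested genes. All 4 that rose were transporter genes, among them Slc7a11, Slc3a2 and Slc7a1, and all 4 that fell encode enzymes. Slc7a11, the cystine carrier that feeds glutathione, was below 150 in every control (126, 133 and 138). It was at 291, 285 and 302 in the late arrays, at least 1.95-fold higher. Its partner Slc3a2 rose 1.90-fold, from 3614, 3314 and 2755 to 6169, 7004 and 5258. Pck2 and Mthfd1l, mitochondrial enzymes of the same ATF4 programme, were 1.75- and 1.77-fold lower.

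The sequence that ATF4 pairs recognise, the core TGATGNAA of the amino acid response element, was found on either strand in 2.16% of the promoters of tested genes and in 3.82% of all 27457 reference promoters. It stood in 7 of 15 synthetase promoters (46.7%), in 6 of 17 of the PERK branch (35.3%) and in 2.06% of the promoters of genes called higher. Matches are shown in capitals for 3 genes that rose.
Trib3, chr3:161275534-161275603, minus strand: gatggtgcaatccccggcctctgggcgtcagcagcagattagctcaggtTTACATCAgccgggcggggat
Iars1, chr17:15193653-15193722, minus strand: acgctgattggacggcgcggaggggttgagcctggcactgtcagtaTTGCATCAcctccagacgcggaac
Herpud1, chr19:10614853-10614922, minus strand: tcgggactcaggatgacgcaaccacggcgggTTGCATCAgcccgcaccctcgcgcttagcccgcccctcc
In Trib3 and Iars1 the match began 21 and 24 bases before the start site, and in Herpud1 184 bases before it. All 3 read on the other strand.

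Genes of cell division fell almost without exception. In the list of S phase and DNA replication 44 of 45 genes fell and 0 rose, with a median log2 change of -1.57, and 31 fell at least 2-fold. In that of G2 and mitosis 52 of 53 fell and 0 rose, with a median of -1.90, and 45 did so at least 2-fold. Without the 72 h array the counts were 43 and 51, and without control 1 they were 43 and 51 too. The exceptions were Ccnb2, whose feature changed by 0.11, and Rfc1, at -0.23, and they are named because they are the only genes of these lists not called.

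Ccna2, the cyclin that acts in S phase and G2, had 2981, 2367 and 2367 in the controls and 288, 411 and 206 at 42, 48 and 72 h, 8.82-fold lower (log2 change -3.14 ± 0.22 (SE), adjusted p = 1.55e-06). Cdk1, which drives entry into mitosis, went down from 5466, 5396 and 5240 to 871, 1410 and 654 (5.77-fold lower, adjusted p = 1.26e-05). Rrm2, the subunit of ribonucleotide reductase that sets the supply of DNA precursors, fell 7.73-fold and spread most among the late arrays of all named genes, with 6072, 3610 and 4039 against 588, 1088 and 299. In all 3 genes the 48 h array was the highest of the late arrays and the 72 h array the lowest.

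Among genes of the mitotic spindle, Nuf2 at the kinetochore fell 8.12-fold, from 6655, 6371 and 6021 to 759, 1169 and 536, and Spc24, another part of the same complex, fell 6.31-fold. Prc1, which bundles the microtubules of the midzone, was 7.07-fold lower, Knstrn 6.54-fold, Tpx2 6.43-fold and Nusap1 6.58-fold. The chromatin proteins Hmgb2 and Hmgn2, both abundant in dividing cells, went with them. Hmgn2 had 29637, 27029 and 25839 in the controls and 4115, 4385 and 3476 in the late arrays, 6.91-fold lower, and was among the brightest features of the array before treatment. Hmgb2 fell 6.50-fold, from 10159, 8536 and 7491 to 1280, 1891 and 977.

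Replication genes fell by similar amounts. Pole2, a subunit of the leading-strand polymerase, had 2198, 1893 and 1972 against 310, 392 and 250 (6.46-fold, adjusted p = 4.26e-07). Mcm3 of the replicative helicase fell 4.92-fold, Mcm10 5.29-fold and Gins1 4.82-fold, the last from 1056, 1061 and 1051 to 217, 286 and 170. Pclaf, which binds the sliding clamp PCNA, was 6.71-fold lower, at 351, 498 and 200 against 2330, 2032 and 2240. Each of these 5 genes had its highest late value at 48 h and its lowest at 72 h.

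**Figure D3:**
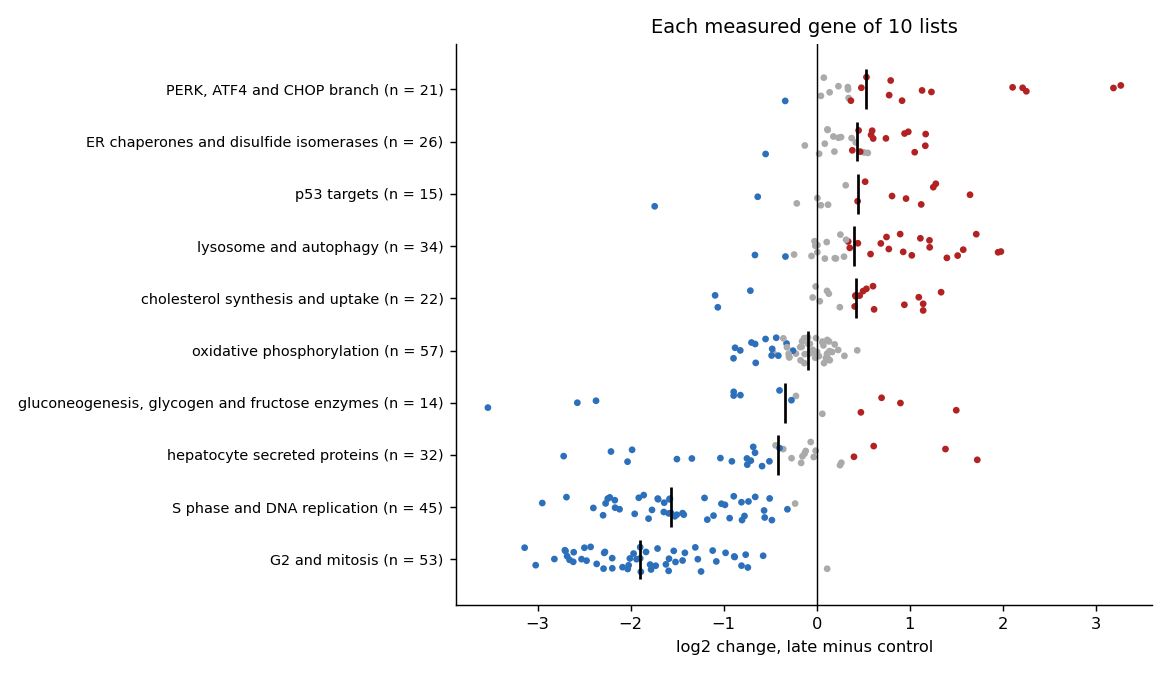
Log2 change (late minus control) of each measured gene in 10 lists, with a point for each gene, red where it was higher and past the test, blue where lower, grey where not past the test, and a black bar at the list's median. The mitotic and replication genes centre on -1.90 and -1.57 with 1 grey point each, while the genes of plasma proteins and of glucose metabolism spread to both sides.

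In the promoters of these genes, 2 motifs were counted: TTTGAA, the cell cycle homology region (CHR) to which DREAM binds, and TTTNNCGC, a form of the E2F site. The CHR letters were in 32 of 43 promoters of the G2 and mitosis list, 74.4%, and in 12.1% of those of all tested genes. They stood in 17.9% of the promoters of genes called lower and in 10.1% of those called higher. For calls of at least 2-fold the shares were 31.9% and 13.8%. Of all 27457 reference promoters, 18.1% held these letters. E2F letters were in 18 of 35 promoters of the S phase list, 51.4%, against 9.28% of all tested genes, and in 6 of 43 promoters of the mitosis list. No match of one overlapped with a match of the other. The windows show CHR matches near the start site, in capitals, and then an E2F match.
Cdk1, chr20:19265203-19265292, plus strand: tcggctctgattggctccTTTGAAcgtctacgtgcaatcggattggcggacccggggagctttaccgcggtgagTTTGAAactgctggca
Prc1, chr1:143659411-143659480, plus strand: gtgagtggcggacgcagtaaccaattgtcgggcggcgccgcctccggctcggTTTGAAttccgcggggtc
Knstrn, chr3:126254626-126254695, plus strand: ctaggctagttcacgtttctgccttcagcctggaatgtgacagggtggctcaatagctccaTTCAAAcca
Hmgb2, chr16:37723951-37724040, minus strand: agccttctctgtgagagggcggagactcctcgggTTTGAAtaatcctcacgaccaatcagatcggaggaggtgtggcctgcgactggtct
Gins1, chr3:160184850-160184919, plus strand: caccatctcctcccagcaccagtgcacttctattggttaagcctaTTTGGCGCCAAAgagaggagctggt
Cdk1 held 2 CHR matches, from 72 and from 16 bases before the start, and the others 1 each, from 18 bases in Prc1, 9 in Knstrn (on the other strand) and 56 in Hmgb2. In Gins1 the E2F letters read on both strands over the same stretch, which began 25 bases before the start site.

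**Figure D4:**
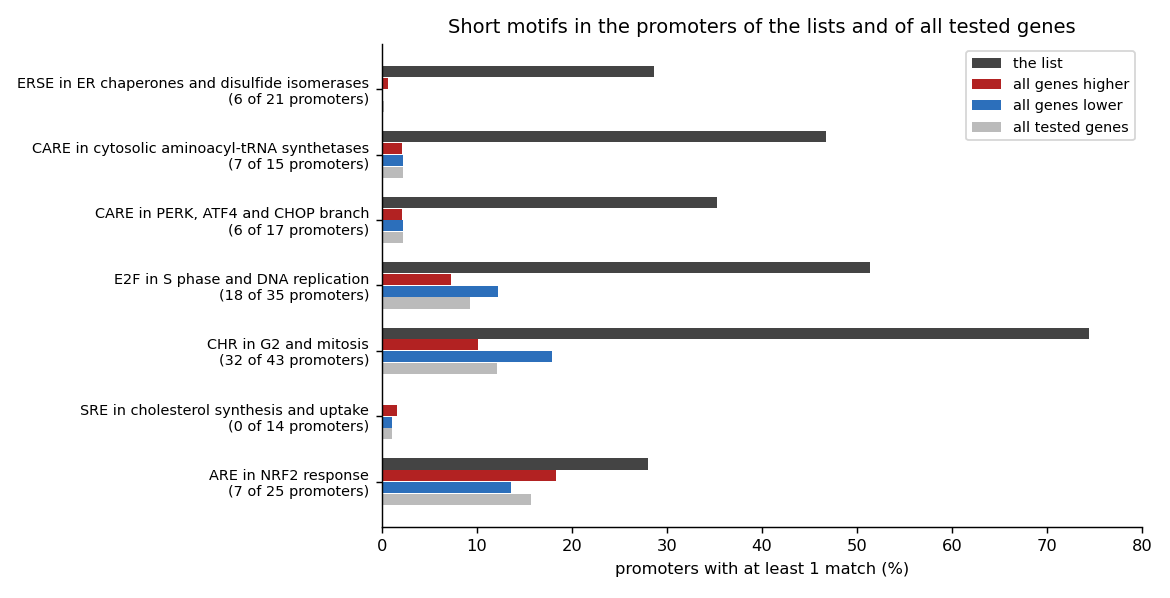
Share of promoters with at least 1 match (percent) for 7 pairs of motif and gene list, beside all genes called higher, all genes called lower and all tested genes. CHR in mitotic genes (74.4%) and E2F in S phase genes (51.4%) are above the 12.1% and 9.28% of all tested genes. The sterol element (SRE, searched as TCACNCCAC) was in 0 of 14 promoters of cholesterol genes and in 1.08% of all tested genes. The antioxidant element (ARE, TGACNNNGC) was in 7 of 25 of NRF2 genes (28%). It was in 15.7% of all tested genes, 18.3% of those called higher and 29.4% of the PERK branch.

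Genes that p53 is known to induce rose in 8 of 15 measured members and fell in 2 (median 0.44). Ccng1, a p53-induced cyclin, had 1098, 900 and 958 in the controls and 2628, 3898 and 2859 in the late arrays, 3.14-fold higher (adjusted p = 3.36e-05). Gadd45a, which acts in growth arrest, rose 2.43-fold and was highest at 42 h (3252, 2398 and 1596 against 942, 1000 and 920). Aen, a nuclease of apoptosis, and Phlda3, a repressor of AKT, rose 2.39- and 2.18-fold. Sesn1, a stress protein that p53 also induces, went down 3.35-fold, from 1975, 1732 and 1812 to 604, 529 and 518, and was the larger of the list's 2 falls. Of 27 genes of the BCL2 family and of caspases, 2 were higher and 7 lower, with a median of 0.01. Mcl1, which opposes cell death, rose 1.67-fold to 1976, 2012 and 1783. Bok, a pro-apoptotic member, and Fadd, the adaptor of death receptors, fell 2.21- and 2.20-fold, and Casp2 fell 1.41-fold. Mapk8, the stress kinase JNK1, lay just above the background in both groups, with 145, 151 and 175 in the controls and 180, 155 and 174 in the late arrays, and was not called (adjusted p = 0.477).

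Liver functions went down more often than up. Of 32 measured plasma protein genes 16 were lower and 4 higher, with a median of -0.42. Alb had 41631, 33161 and 35866 in the controls and 18285, 13714 and 22943 in the late arrays, 2.05-fold lower (adjusted p = 0.00112). Gc, the vitamin D carrier, fell most, from 8473, 6276 and 6607 to 1215, 1093 and 924 (6.59-fold, adjusted p = 1.19e-06). Ttr fell 4.63-fold, Plg 3.96-fold and Serpina1 2.83-fold. Igfbp1, a binding protein for insulin-like growth factors that stress raises in liver, rose instead, from 4716, 4217 and 3879 to 14605, 16686 and 11497 (3.31-fold, adjusted p = 0.000144). Serpina6 was 4.10-fold lower on its brightest feature, but its other feature changed by -0.05 and was not called, so its change is uncertain.

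Among 15 measured hepatocyte transcription factors, 4 were higher and 7 lower, with 2 higher without control 2, control 3 or the 48 h array. Onecut1 (HNF6) fell 2.28-fold, with 1429, 1400 and 2255 against 3980, 3694 and 3635. Of 14 enzymes of glucose synthesis, glycogen and fructose, 8 were lower and 4 higher. G6pc1, which releases free glucose, had 1004, 1049 and 922 in the controls and 206, 186 and 183 in the late arrays, 5.18-fold lower (adjusted p = 1.08e-07). Aldoa, the aldolase of muscle and of growing cells, rose 2.42-fold from 3002, 2616 and 2203 to 6057, 6813 and 5974. Of 10 glycolysis genes 2 were higher and 1 lower. Eno2, the enolase of neurons, rose 3.95-fold while Eno1 did not pass the test (868, 741 and 641 against 785, 849 and 1001). Gys2, liver glycogen synthase, was 2.83-fold higher, at 3448, 3419 and 2560 against 1131, 1054 and 1113.

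The insulin-related genes were mixed, with 3 of 12 higher and 5 lower, of which 2 remained in number without control 2 and 3 without the 42 h or the 48 h array. Sgk1, a kinase related to AKT, fell 6.23-fold, from 4464, 3592 and 4237 to 847, 625 and 531 (adjusted p = 8.17e-07). Akt1 itself had 828, 745 and 608 in the controls and 515, 515 and 601 in the late arrays, a 1.33-fold fall whose call was lost without control 1 (adjusted p = 0.0957) and without control 2, the 42 h or the 48 h array. Amino acid breakdown fell in 6 of 19 genes and rose in 4. Ass1, a urea cycle enzyme, fell 2.43-fold and Ahcy 2.52-fold. Of 17 measured xenobiotic genes 5 were lower and 2 higher, and without control 3 or the 42 h array 3 were lower. Fmo1, a flavin monooxygenase, fell 7.39-fold, from 4114, 3112 and 3295 to 538, 440 and 441, and Cyp2e1, the ethanol-oxidising cytochrome, was below 150 on all late arrays (129, 120 and 140 against 361, 390 and 364), at least 2.48-fold lower.

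Sterol and fatty acid genes rose more often than they fell. In the list of cholesterol synthesis and uptake, 13 of 22 were higher and 3 lower, with a median of 0.42, and in that of fatty acid and triglyceride synthesis 7 of 15 were higher and 2 lower. Mvd, an enzyme of the mevalonate pathway, had 515, 581 and 562 in the controls and 1366, 1569 and 1269 in the late arrays, 2.53-fold higher (adjusted p = 1.21e-05). Fdps, Msmo1 and Sc5d, further steps of the pathway, rose 2.21-, 2.14- and 2.21-fold. The late arrays of Sc5d, at 1356, 1210 and 1269, lay well above every control (577, 542 and 615). Scd, which desaturates stearate, rose 2.14-fold, and Acss2, which makes acetyl-CoA in the cytosol, 1.97-fold. Ebp, an isomerase of the same sterol pathway, fell 2.13-fold, from 2633, 3072 and 3120 to 1322, 1219 and 1619, and Srebf1, which encodes the SREBP1 factor, fell 1.71-fold. Of 25 fatty acid oxidation genes 7 were higher (28%) and 5 lower (20%), beside 19.4% each way over all tested genes. Acsl1, which activates fatty acids, rose 2.63-fold and Acot2 at least 2.55-fold from controls below 150. Acadvl, which starts the oxidation of long chains, fell 2.32-fold, from 683, 693 and 704 to 298, 240 and 372.

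Genes of the antioxidant factor NRF2 rose in 13 of 32 members and fell in 5, with a median of 0.06, and the number that fell was 3 without control 3, the 42 h or the 48 h array. Hmox1, which degrades heme, had 386, 347 and 347 in the controls and 1548, 1370 and 1338 in the late arrays, 3.94-fold higher (log2 change 1.98 ± 0.12 (SE), adjusted p = 7.12e-07). Its values were nearly level across the 3 hours. Sqstm1, which NRF2 and autophagy share, rose 3.95-fold on its brightest feature, 1 of 3, of which another was called and the last not. Gstm1, a glutathione transferase among the brightest genes of the controls, fell 2.92-fold, from 22449, 20309 and 19579 to 7056, 7159 and 7094. Ferritin light chain (Ftl1) rose 1.62-fold, and of 17 heme and iron genes 2 were higher and 6 lower, or 3 lower without the 42 h array and 4 without control 1. Tfrc, the transferrin receptor, had 1610, 885 and 1077 against 770, 902 and 652, and its call was lost without control 1 (adjusted p = 0.139), control 3, the 42 h or the 72 h array.

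Since α-LA is the free form of the lipoate that mitochondrial enzymes carry, the genes of that pathway are given on their own. Of 15 measured, 2 were higher and 6 lower (median -0.24). Lias, which makes lipoate, had 385, 363 and 342 in the controls and 605, 657 and 648 in the late arrays, 1.75-fold higher (adjusted p = 0.000302). Among the enzymes that carry or work with it, Ogdh and Pdhb fell 1.55- and 1.54-fold. The glycine cleavage genes Amt and Gcsh fell 1.54- and 1.33-fold.

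Of 57 subunits of oxidative phosphorylation, 13 were lower and 0 higher, with a median of -0.09. Control 1 lay 0.29 below the control mean in this list's median, and without it 16 were lower and the median was -0.22. Without control 2 there were 10 lower with a median of -0.025, and without control 3 there were 9 with a median of -0.021. Ndufs8 of complex I had 2154, 2856 and 2804 in the controls and 1289, 1397 and 1492 in the late arrays (1.86-fold lower, adjusted p = 0.000125). In Ndufs8 the control nearest to the late arrays was control 1, and the log2 change was -0.89 with it and -1.02 without it. Sdhd of complex II fell 1.77-fold and Atp5f1a of the ATP synthase 1.84-fold, from 32436, 24465 and 25111 to 14538, 14665 and 15084. Mt1, a metal-binding protein, had the widest controls of the named genes, 6478, 16403 and 13522, with control 1 lowest, and 1707, 2363 and 2135 in the late arrays (5.50-fold lower, adjusted p = 0.000561). The log2 change of Mt1 was -2.46 with control 1 and -2.86 without it.

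Lysosome and autophagy genes rose in 19 of 34 members and fell in 2, with a median of 0.40 and 10 at least 2-fold higher. Gabarap, which coats the autophagosome, had 1120, 1009 and 1392 in the controls and 4410, 4210 and 4908 in the late arrays, 3.87-fold higher (adjusted p = 8.61e-07). Ctsd, a protease of the lysosome, rose 2.86-fold, and the calcium channel Mcoln1 rose 2.98-fold. Ctsd was highest at 72 h (826, 895 and 1228 against 315, 357 and 345). Proteasome subunits were close to level, with 2 of 35 higher, 2 lower, 5 without control 1, and a median of 0.04. Ribosome biogenesis had 4 of 33 higher and 5 lower, and Fbl, the methylase of ribosomal RNA, fell 1.76-fold.

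Hypoxia-inducible genes rose in 10 of 16 members and fell in 0, with a median of 0.52. Bnip3, which marks mitochondria for removal, had 2216, 1727 and 1844 in the controls and 7027, 5268 and 3898 in the late arrays, 2.73-fold higher (adjusted p = 0.000116). Ankrd37 rose 2.82-fold, to 818, 866 and 425, and Hif1a 1.94-fold. Immediate early genes rose in 10 of 19 and fell in 1. Klf6, a zinc finger factor, had 269, 319 and 325 against 1387, 1625 and 1021, 4.35-fold higher (adjusted p = 4.23e-06), and the phosphatase Dusp1 rose 3.10-fold. Klf10, a relative of Klf6, was below 150 on all late arrays and at least 1.79-fold lower. Cytosolic heat shock genes had 4 of 12 higher and 3 lower, or 1 lower without control 1 or the 72 h array. Hspb8, a small heat shock protein, rose 4.04-fold, from 1091, 1042 and 1028 to 4464, 4938 and 3497, and its partner Bag3 rose 1.76-fold, while Dnajb1, a classical heat shock gene, fell 1.54-fold. Lcn2, a protein that binds siderophores, rose with 3 others of 11 measured genes of the acute phase and NF-kappa-B response, in which 1 fell. Lcn2 was below 150 in the controls (130, 134 and 136) and at 704, 563 and 247 in the late arrays, at least 3.07-fold higher.

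Some of the largest changes lay in no list. Arhgef2, an exchange factor tied to microtubules, had 162, 170 and 156 in the controls and 1265, 1252 and 857 in the late arrays, 6.81-fold higher (adjusted p = 6.05e-07). Tmem150a, a membrane protein, rose 5.73-fold and was highest at 72 h, with 2017, 1511 and 2437 against 319, 357 and 347. Sult1c2al1 and Sult1c2, related sulfotransferase genes that could share signal, were both near or below 150 in the controls and between 592 and 887 in the late arrays, with Sult1c2al1 at least 5.09-fold higher. Slfn4 was at least 4.0-fold higher. Wnt4, a secreted signal, fell 6.58-fold and varied little within either group, with 2244, 2474 and 2190 against 347, 346 and 356.

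The late hours were also set directly against the early ones, 18, 24 and 30 h. Of all features 591 were higher in the late group, 6.43%, and 665 lower, 7.23%. Without the 42 h array these counts were 314 and 390, and without the 48 h array 342 and 442. Both comparisons use the same control arrays in the fit, and the difference itself was tested here. In cholesterol synthesis 15 of 22 genes were higher late than early and 0 lower. Ankrd37 differed most, by 1.88 ± 0.21 on the log2 scale (SE, adjusted p = 0.000902), and Dusp1 by 1.67. Ccng1, Creld2 and Tmem140, a membrane protein, were higher by 1.49, 1.43 and 1.41. On the other side 39 of 53 mitotic genes were lower late than early and 0 higher, and of 45 S phase genes 17 were lower and 1 higher. The 5 genes with the largest such falls were Mt1, Gc, Pla2g1b, Knstrn and Cdk1. Pla2g1b, a secreted phospholipase, did not pass the test against control. Gdf15, Pck1, Hmox1 and Trib3, by contrast, differed by 0.17 or less in size on the log2 scale, none of it past the test.

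**Figure D5:**
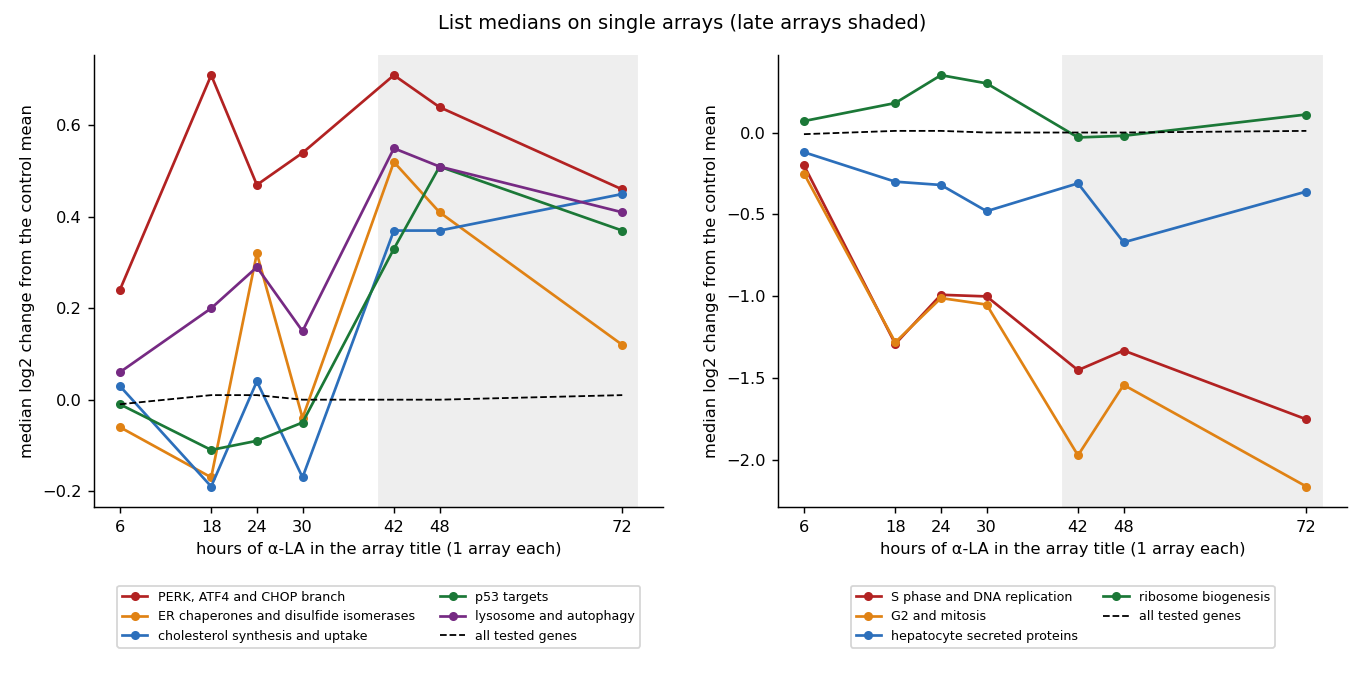
Median log2 change of the measured genes of 9 lists from the mean of the 3 controls, on each α-LA array (hours as in the titles, 1 array each, late hours shaded), with the median of all tested genes dashed. The medians of cholesterol and p53 genes lie between -0.19 and 0.04 up to 30 h and between 0.33 and 0.51 from 42 h on. With each gene averaged over the early arrays first, the early medians were -0.12 for cholesterol and 0.15 for p53 genes. Of 15 p53 genes, 6 were called higher late than early. The median of mitotic genes reaches -2.16 at 72 h.

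Within the late group the single arrays gave these medians. The median of the ER chaperones was 0.52, 0.41 and 0.12 above the controls at 42, 48 and 72 h, and that of the PERK branch 0.71, 0.64 and 0.46. In the same order the mitotic median was -1.97, -1.54 and -2.16, and the cholesterol median 0.37, 0.37 and 0.45. With 1 array at each hour, a difference between hours and a difference between cultures cannot be told apart, and it was not tested.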

How the data were processed

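FaO cells were profiled on Illumina RatRef-12 bead arrays. Per the labels and the study's methods, the authors read the arrays in BeadStudio 3.0.19.0 and quantile-normalised them. The deposited values used here are linear, normalised signal intensity values of 12 arrays, with no background subtracted, as the features that never reach 150 lie near 119.2 on each array. A second deposited table of unnormalised signals was not used, since its 24 value columns carry no name that ties them to samples. Quantile normalisation gives every array the same distribution, so a change in total RNA would not be seen, and the number of arrays limits the precision.

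Intensities were taken to log2. Features with a signal of 150 or more on at least 3 of the 12 arrays were kept, and the 3 controls, the early arrays (18 to 30 h) and the late arrays (42 to 72 h) were fitted together with limma 3.58.1 (lmFit, eBayes) in R 4.3.3, with Benjamini-Hochberg adjustment over all 9193 tested features and a threshold of 0.05. The study's own test was a random-variance F-test, which also shares variance between genes. On simulated data for 9193 features, all of the 200 features changed by log2 1 or 2 were recovered, with 15 false calls among the unchanged features. The simulated noise was independent between arrays and drawn from the variances of the same fit. The run therefore checks the code and gives no error rate for the calls above. A gene with several features was given by its brightest. A fold against a group below 150 on all its arrays is given as a bound, with 150 in place of the dim signals, as the mean of log2 values over 3 arrays. Of 22523 features, 13793 took a current gene name through the annotation of the platform, 764 from the symbol that the study prints beside them, and 7966 had no name and are not named here.

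Named genes were the 15 largest rises and the 15 largest falls (called, groups apart, bright group at 150 or more on each array), up to 5 members of each list with the largest change, the genes that the study discusses, the 10 called genes with the widest late range, and the 5 largest differences each way between late and early, and those that the text needed were taken from these. Ccnb2, Rfc1, Ttyh1, Pcdha4, Chac1 and Aldh1a4 fall outside this rule and were picked after their values were seen. So were the dim cell type markers Hnf4a, Apob, Cps1, Krt7, Krt19, Epcam and Spp1, which come from the marker lists. A few genes that the rule picked are not reported here. The arrays, gene lists and tests were chosen with earlier results of these data known. Promoters are RefSeq sequences of build GRCr8, matched by gene ID. Alternatives covered the arrays in the fit, the filter, the scaling, the background, the variance model and each array left out. Figures were drawn with matplotlib 3.10.9.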

Additional observations from a re-analysis of the deposited data

Results flagged for a closer look

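The late and early α-LA arrays differed by the test of the difference itself in 591 features that were higher late and 665 that were lower. The genes described above that differ in this way are given here by their late-minus-early change on the log2 scale (limma, adjusted over all tested features). No explanation was weighed.

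Among genes of ER stress and protein folding, the difference was 1.43 for Dnajb9, 1.43 for Creld2, 1.16 for Atf3, 1.0 for Eif2ak3, 0.78 for Hsp90b1, 0.70 for Manf, 0.68 for Pdia4 and 0.48 for Vcp. In other stress genes it was 1.88 for Ankrd37, 1.67 for Dusp1, 1.37 for Hspb8, 1.21 for Zfand2a, 1.17 for Klf6, 1.11 for Bnip3, 1.08 for Slfn4, 1.02 for Lcn2 and 0.81 for Bag3, while Klf10 was lower by 0.38 (a change of -0.38). Among p53 targets, Ccng1 changed by 1.49, Gadd45a by 1.13, Phlda3 by 0.59 and Sesn1 by 0.36, and Tmem140 changed by 1.41.

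Lipid genes were higher late than early by 1.04 for Mvd, 1.02 for Acss2, 0.75 for Fdps, 0.74 for Msmo1, 0.69 for Scd, 0.49 for Acsl1 and 0.38 for Sc5d. The lysosome and transport genes Ctsd, Gabarap, Mcoln1 and Slc7a11 were higher by 1.19, 0.81, 0.50 and 0.69.

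Dividing-cell genes were lower late, with changes of -1.56 for Knstrn, -1.47 for Cdk1, -1.30 for Prc1, -1.29 for Tpx2, -1.17 for Ccna2, -1.14 for Nuf2, -1.01 for Spc24, -0.84 for Pole2, -0.79 for Mcm10 and -0.57 for Hmgn2. Liver and metabolic genes changed by -1.67 (Mt1), -1.66 (Gc), -1.59 (Pla2g1b), -0.95 (Ass1), -0.72 (Pck2), -0.58 (Onecut1), -0.50 (Mthfd1l) and -0.33 (Amt). For Bok the change was -0.66, for Fadd -0.53, for Fbl -0.48 and for Wnt4 -0.47.

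The thapsigargin arrays, which no comparison above uses, also stood apart from the controls, with 346 features at least 2-fold higher and 359 lower than the control mean on the array titled 18 h, and 330 and 372 on that titled 24 h, against at most 33 on any control array set against the other controls. The labels give other hours for thapsigargin in the protocol than in the titles.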

How the results depend on the processing

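The counts of features higher and lower against control stayed within 1.5 times of 1753 and 1625 under all settings tried, from 1422 to 2416 and from 1247 to 2250, the highest with array weights. With single arrays left out they ranged from 1422 to 1665 and from 1315 to 1600, the 2-fold counts from 228 to 283 and from 343 to 378, and the counts against the early group from 314 to 620 and from 390 to 668. Without control 1 and the 72 h array together, a setting added after the data were seen, the counts were 1526 and 1486. Subtracting the background before log2 moved the 2-fold counts to 682 higher and 801 lower, since it widens the ratios of dim features by construction. It also moved the counts against the early group to 389 higher and 450 lower, and the cause was not tested. P4hb, which was not called, changed sign with cyclic loess (-0.0146) and in 3 of the fits without a single array, control 2 or the 42 or 48 h array, where it ranged from -0.0903 to 0.161 over all such fits. Of 2138 values of single genes under alternatives, 24 lost their call, all in Akt1, Casp2, Creld2, Sox9 and Tfrc, and 1 gained one. The genes counted were picked mostly for large changes, so this does not show how stable the other calls are. Chac1 was not among the genes of this count. No paired analysis was possible because the titles tie no late array to a control, the late arrays being numbered here by their hour.

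The limits are 1 array for each hour, pooled wells, controls of unstated time and background in the signals. Features near 150 cannot show a fall, and 13 features at least 2-fold lower were below 150 on every late array.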
